A study of Mus musculus with 6 samples.

Results

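The respiratory chain genes are the genes for the protein subunits of complexes I, III, IV and V of the mitochondrial inner membrane. They were chosen by name and biotype among the 22386 genes of the table: protein-coding genes called Nduf followed by a, b, c, s or v and a number, Uqcr, Cox followed by a digit from 4 to 8 and a letter from a to c, Atp5, and the mitochondrial subunit genes mt-Nd, mt-Co, mt-Cytb and mt-Atp. This gave 92 genes, 79 of the nuclear genome and 13 of the mitochondrial genome. The nuclear genes fell into 39 of complex I, 8 of complex III, 15 of complex IV and 17 of complex V, and the mitochondrial genes into 7, 1, 3 and 2 of the same complexes. The patterns took in Cox5b-ps, which carries a pseudogene symbol but is listed as protein coding. They did not take in Cox4i1, Ndufab1, cytochrome c1 (Cyc1), cytochrome c (Cycs) or complex II, which are described with the other genes of the pathway.

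Complex I (NADH dehydrogenase) takes electrons from NADH, complex III passes them from ubiquinol to cytochrome c, and complex IV (cytochrome c oxidase) passes them to oxygen. All 3 pump protons out of the matrix, and complex V (ATP synthase) makes ATP as the protons return. The mitochondrial genome encodes the hydrophobic core of each of these complexes, whereas the remaining subunits are made from nuclear genes in the cytosol and imported. Each complex therefore needs transcripts of both genomes, which are copied by different RNA polymerases.

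The cells were MC38, a mouse colorectal cancer line, grown in DMEM with fetal bovine serum. The 3 shControl libraries came from cells labelled WT that carried a control short hairpin RNA. The 3 shACSL4 libraries came from cells labelled as an Acsl4 knockdown, with a short hairpin RNA against Acsl4, the acyl-CoA synthetase that prefers arachidonic acid. The series design calls the same cells knockouts, and whether 1 hairpin or several, or 1 clone or a pool, was used, is not given in the labels. Nothing says that the replicates were separate cultures, so every p-value below measures only the spread between these libraries. Library totals ran from 40911698 to 47127672 counts. Acsl4 itself was at 191, 194 and 204 CPM in shControl and 132, 128 and 127 CPM in shACSL4, and it fell by 0.61 on the log2 scale (SE 0.05, edgeR adjusted p = 3.84e-06), a reduction to 0.656 of the control level. Of the 10 epithelial markers, 8 were in the table and 2 passed the filter on low counts. Cdh1, Krt18 and Krt19 had at most 0.0949 CPM in any library, and Krt8 and Krt20, which passed the filter, had at most 1.09 and 2.15 CPM. Krt20 was higher in shACSL4, at 0.940 ± 0.14 CPM in shControl and 1.69 ± 0.40 CPM in shACSL4 (SD, n = 3, edgeR adjusted p = 0.0361). Its call was lost without shControl 3 (edgeR adjusted p = 0.0524). Of 6 fibroblast markers, Pdgfra was higher in shACSL4, at 122 ± 4.48 and 264 ± 12.0 CPM (edgeR adjusted p = 4.85e-08), and Dcn was lower, at 668 ± 54.0 and 523 ± 87.3 CPM (edgeR adjusted p = 0.0431). The call of Dcn was lost without shControl 3 (edgeR adjusted p = 0.304). Pdgfrb was also higher, at 1.22 and 2.37 CPM, and Col1a1, Col1a2 and Thy1 were each below 1 CPM in every library. The defining epithelial markers were thus at or near 0, against the labelled colorectal cell type. Summed over the listed markers, immune genes had 4.33 to 6.79 CPM, endothelial genes 0.536 to 1.19 CPM and striated muscle genes 9.46 to 14.2 CPM in shControl and 3.89 to 4.31 CPM in shACSL4. Tnnt2 alone went from 8.46 to 1.28 CPM in the muscle sum, whereas Ttn was at 1.57 and 2.08 CPM, Actn2 at 0.322 and 0.377 CPM, and Ckm and Mb were near 0.

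Promoter sequences are shown for 4 of the 10 nuclear genes called higher in every fit with 1 library left out. These 4 were printed because their windows held a match to a motif given below. Of the rest, Atp5g1, Ndufa10, Ndufb10 and Ndufv3 had windows without any match, and Ndufs1 and Uqcrb did not match the promoter table. The sequences are therefore not typical of the genes that were higher. Each is 300 bases, 250 before and 50 after the annotated start, on the minus strand of RefSeq's GRCm38.p6 build, printed 5′ to 3′. Capitals mark exact matches on either strand to 3 short motifs: GCATGCGC for NRF1, CCGGAAG for ETS factors such as GABP, and AAGATGGC for YY1. The first sequence, of the complex IV subunit gene Cox6a1, is chr5:115348909-115349208. The next is of Cox8a, also complex IV, at chr19:7217567-7217866. Ndufa6 of complex I follows at chr15:82354242-82354541, and Atp5pb, the b subunit of complex V, at chr3:105959214-105959513.
Cox6a1: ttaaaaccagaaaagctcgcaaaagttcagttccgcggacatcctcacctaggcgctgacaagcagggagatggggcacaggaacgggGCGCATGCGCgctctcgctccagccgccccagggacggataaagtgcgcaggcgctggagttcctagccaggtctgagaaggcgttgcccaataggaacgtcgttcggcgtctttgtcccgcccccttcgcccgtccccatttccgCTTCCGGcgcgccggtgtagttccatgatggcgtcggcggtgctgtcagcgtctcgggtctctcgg
Cox8a: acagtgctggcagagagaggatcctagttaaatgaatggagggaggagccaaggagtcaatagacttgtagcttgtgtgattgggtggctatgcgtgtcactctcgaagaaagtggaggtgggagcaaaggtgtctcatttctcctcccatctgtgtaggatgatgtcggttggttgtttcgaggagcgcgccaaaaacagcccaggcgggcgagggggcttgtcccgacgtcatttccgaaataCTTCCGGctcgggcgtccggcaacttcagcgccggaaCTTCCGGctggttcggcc
Ndufa6: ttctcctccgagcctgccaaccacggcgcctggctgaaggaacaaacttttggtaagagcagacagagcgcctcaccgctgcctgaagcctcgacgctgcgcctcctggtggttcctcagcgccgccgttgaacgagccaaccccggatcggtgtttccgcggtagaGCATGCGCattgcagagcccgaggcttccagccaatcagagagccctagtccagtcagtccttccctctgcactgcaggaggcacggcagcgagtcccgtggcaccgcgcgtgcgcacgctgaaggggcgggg
Atp5pb: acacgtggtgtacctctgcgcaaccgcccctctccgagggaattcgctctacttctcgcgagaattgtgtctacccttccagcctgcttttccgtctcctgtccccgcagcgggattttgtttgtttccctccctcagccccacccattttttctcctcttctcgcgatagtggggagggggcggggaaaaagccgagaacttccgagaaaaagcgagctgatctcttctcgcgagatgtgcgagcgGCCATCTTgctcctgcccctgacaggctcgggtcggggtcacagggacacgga

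The capitals in Cox6a1 are GCGCATGCGC, where the NRF1 motif matches on both strands in overlapping positions, and CTTCCGG, an ETS match on the reverse strand. Cox8a carried CTTCCGG at 2 positions close to the start, Ndufa6 carried GCATGCGC, and Atp5pb carried GCCATCTT, the reverse complement of the YY1 motif. Of the 79 nuclear genes, 65 matched the promoter table. The NRF1 motif was in 9 of the 65 (13.8%), against 6.03% of the 9890 tested genes with a promoter window and 2.71% of all 32851 windows. The YY1 motif was in 10 (15.4%), against 5.22% of tested genes and 2.75% of windows. The ETS motif was in 15 (23.1%), against 20.2% of tested genes and 8.86% of windows. Among the 17 matched genes that were higher in shACSL4, 4 held the NRF1 motif, 3 the ETS motif and 2 the YY1 motif, and among 46 that did not pass the test the numbers were 5, 12 and 8. A match describes letters in a window and is not evidence of binding.

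One control library stood apart in these genes, so the counts called for each genome and complex are given with it and without it. Values of single genes are from all 6 libraries unless stated. In shControl 3, 70 of the 76 nuclear genes tested were below both other controls, and 67 were at the lowest value of all 6 libraries. Over all 14289 genes tested, these numbers were 5560 and 2682. The median over the 76 genes of the log2 CPM over the control mean was 0.10 in shControl 1, 0.10 in shControl 2 and −0.24 in shControl 3. The same median was 0.23, 0.17 and 0.04 in shACSL4 1, 2 and 3. Over all 14289 genes tested, the median for shControl 3 was 0.0012, which the scaling between libraries keeps small. It therefore does not show that other genes were alike in this library. Other protein-coding genes had medians of −0.14 under 1000 bases and 0.02 over 4000 bases there, by the length that counts and FPKM imply. The mitochondrial genes went the other way from the nuclear respiratory chain genes in shControl 3. Their medians were −0.23, −0.33 and 0.44 in the controls and −0.0098, 0.57 and 0.24 in shACSL4. Genes for cytosolic ribosomal proteins also had a median of −0.24 in shControl 3, against 0.10 and 0.12 in the other controls. Of these 90 genes, 80 were below both other controls in shControl 3, and 9 had their lowest value there. In shACSL4 1, 2 and 3 their medians were −0.30, −0.30 and −0.41. For them shControl 3 thus lay between the other controls and the knockdown, whereas the nuclear respiratory chain median was lowest in shControl 3.

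**Figure D1:**
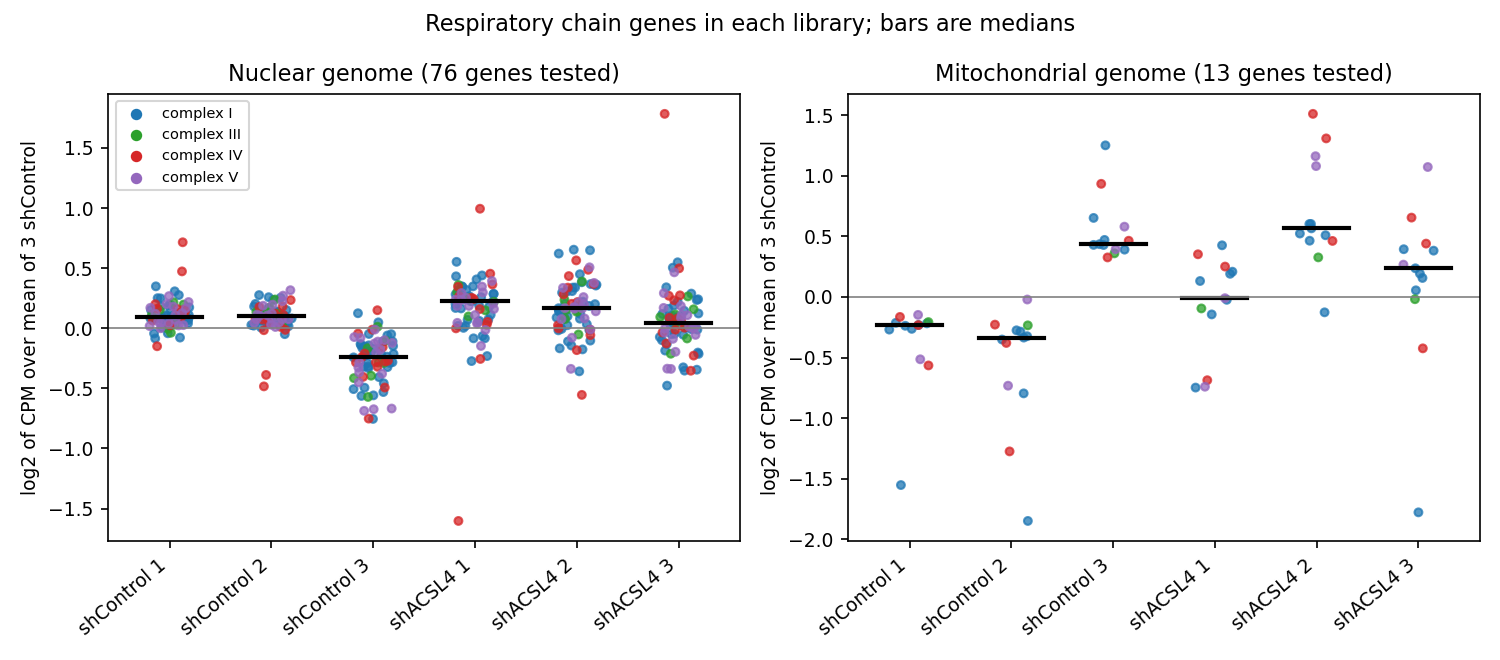
Each point is 1 gene in 1 library, as the log2 of its CPM over the mean of the 3 shControl libraries, for 76 nuclear genes on the left and 13 mitochondrial genes on the right, coloured by complex; black bars are medians. In shControl 3 the nuclear median lies at −0.24 and the mitochondrial median at 0.44, on opposite sides of the other controls.

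Among the nuclear genes, 20 of 76 were higher in shACSL4 (26.3%) and 1 was lower. The share called among all genes tested was 15.4% higher (2205 genes) and 13.6% lower (1950 genes). The median log2 fold change of the 76 genes was 0.14, with 58 above 0, against −0.0052 over all genes tested. The 20 called genes rose by modest amounts, from 1.12-fold for Atp5b to 1.49-fold for Ndufv3. In 25 nuclear genes every shACSL4 library was above every shControl library, and in 0 every one was below. Over all genes tested, 22.0% had groups that did not overlap with shACSL4 higher and 20.8% with shACSL4 lower. These are bulk libraries, in which a change in RNA per cell and a change in the mix of cells cannot be told apart.

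Without shControl 3, the same 20 nuclear genes were higher, and 10 were lower. The share called among 14724 genes tested in that fit was 19.1% higher and 18.1% lower. The median log2 fold change of the nuclear genes then came to 0.03, from 0.14 with all libraries. All 3 knockdown libraries were above shControl 1 in 26 nuclear genes and below it in 21. Against shControl 2 the numbers were 28 above and 16 below, and against shControl 3 they were 71 above and 2 below. Over all 14289 genes tested, 5293 were above and 5345 below shControl 1. The same counts over all genes were 5282 and 5389 against shControl 2, and 5254 and 5054 against shControl 3. The median log2 ratio of the knockdown mean to the control was 0.03 over shControl 1, 0.05 over shControl 2 and 0.40 over shControl 3. Leaving out shACSL4 1 left 11 of the 20 called, without Ndufb5, Ndufa11, Ndufv2, Uqcrc1, Cox5b, Atp5a1, Atp5j, Atp5d and Atp5b. Leaving out shACSL4 2 left 12, without Ndufb2, Ndufb5, Ndufa11, Ndufv2, Cox5b, Atp5j, Atp5d and Atp5b. Ndufa11, Uqcrc1, Atp5d and Atp5b lost the call without shControl 1, Ndufv2 and Atp5b without shControl 2, and Atp5d and Atp5b without shACSL4 3. The 10 genes called in every one of the 6 fits with 1 library left out were Ndufs1, Ndufv3, Ndufa6, Ndufa10, Ndufb10, Uqcrb, Cox6a1, Cox8a, Atp5pb and Atp5g1. At the deposited adjusted p under 0.05, the authors' deposited table gave 21 genes higher and 1 lower, and 0 of the 92 were marked there as regulated in either direction.

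**Figure D2:**
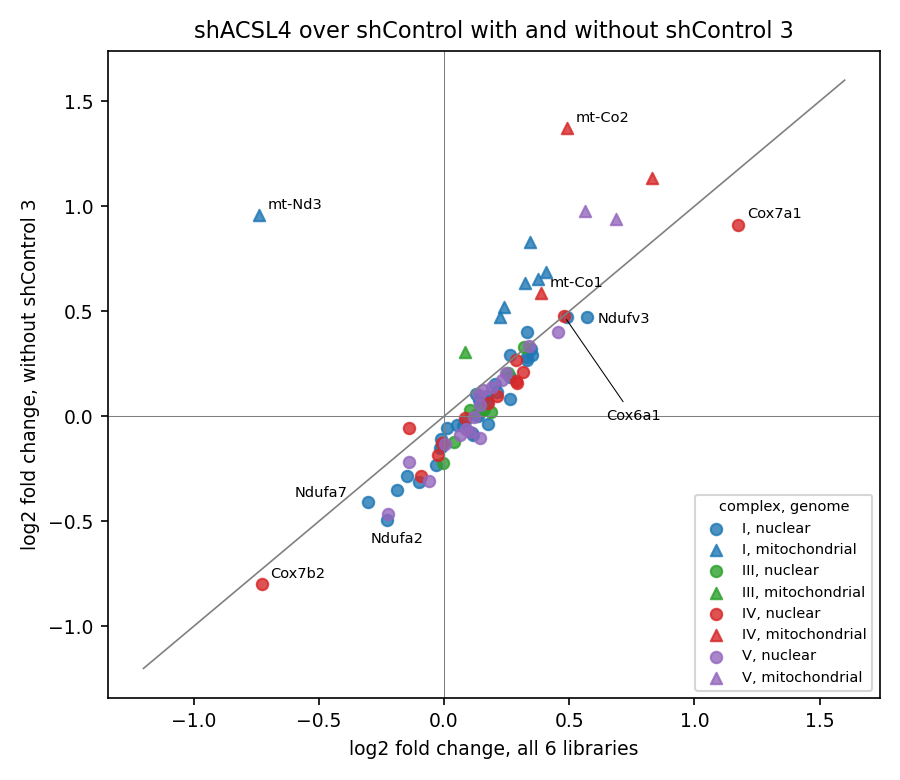
Each point is 1 of the 89 genes tested, with the edgeR log2 fold change of shACSL4 over shControl from all 6 libraries on the x axis and without shControl 3 on the y axis; circles are nuclear and triangles mitochondrial genes, coloured by complex, and the diagonal marks equal values. Nuclear genes lie mostly below the diagonal and mitochondrial genes above it, and Cox6a1 stays at 0.48 on both axes.

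Complex I held 9 of its 37 tested nuclear genes higher (24.3%) and 1 lower. Of the nuclear core subunits, which carry the flavin and the iron-sulfur clusters, Ndufs1 and Ndufv2 passed the test. Ndufs1, the large iron-sulfur subunit, had 138, 135 and 122 CPM in shControl and 174, 166 and 155 CPM in shACSL4. Every knockdown library was above every control (log2 fold change 0.33 ± 0.06 (SE), edgeR adjusted p = 0.00192). Ndufv2, which holds an iron-sulfur cluster next to the flavin site, had 103, 98.6 and 90.0 CPM in shControl and 110.0, 119.9 and 105 CPM in shACSL4. Its groups did not overlap either, with a smaller difference (log2 fold change 0.20 ± 0.07 (SE), edgeR adjusted p = 0.0362), and the call was lost in 3 of the 6 fits with 1 library left out, with an adjusted p of up to 0.161. Ndufs3, Ndufs7, Ndufs8 and Ndufv1, also core genes, had log2 fold changes between 0.13 and 0.17 and did not pass (edgeR adjusted p from 0.132 to 0.366). Ndufv1, the flavin-binding subunit, had 113, 119 and 87.0 CPM in shControl and 132, 113 and 111 CPM in shACSL4, and the lowest value was that of shControl 3, as it was for Ndufs1 and Ndufv2. Without that library its log2 fold change was 0.04 (edgeR adjusted p = 0.714).

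The accessory subunits of complex I surround the core and take part in its assembly and stability. Of 30 tested, 7 were higher and 1 lower. Ndufv3, a small subunit of the NADH-binding arm, was at 45.3, 41.5 and 34.7 CPM in shControl and 59.4, 63.7 and 57.5 CPM in shACSL4. This was the largest rise among the called genes (log2 fold change 0.57 ± 0.09 (SE), edgeR adjusted p = 5.10e-04), and all knockdown libraries lay above the highest control. Ndufb10, a subunit of the membrane arm, had 80.9, 79.6 and 75.5 CPM in shControl and 100.2, 107 and 92.6 CPM in shACSL4. No overlap was seen between its groups (log2 fold change 0.35 ± 0.06 (SE), edgeR adjusted p = 0.00141). For Ndufa10, a matrix-side subunit of the membrane arm, the values were 90.9, 93.2 and 105 CPM in shControl and 122, 123 and 118 CPM in shACSL4. Here shControl 3 was the highest control, and the knockdown libraries were still above it (log2 fold change 0.33 ± 0.06 (SE), edgeR adjusted p = 0.00172). Ndufa6, an LYR-motif subunit that binds the mitochondrial acyl carrier protein, had 32.2, 34.7 and 29.2 CPM in shControl and 40.8, 41.3 and 40.6 CPM in shACSL4. The knockdown values lay within 1 CPM of each other and above all controls (log2 fold change 0.35 ± 0.07 (SE), edgeR adjusted p = 0.00322).

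Ndufb2, at 5.84, 5.70 and 5.49 CPM in shControl and 6.93, 8.73 and 8.31 CPM in shACSL4, was the least abundant of the called complex I genes (log2 fold change 0.49 ± 0.13 (SE), edgeR adjusted p = 0.012). Ndufb5 (1.20-fold) and Ndufa11 (1.26-fold) were also called, with edgeR adjusted p of 0.0212 and 0.0324. These 3 calls were lost in 1, 2 and 3 of the 6 fits with 1 library left out. The one gene lower was Ndufa7, an accessory subunit of the peripheral arm, with 47.3, 47.7 and 37.5 CPM in shControl and 37.6, 34.4 and 35.3 CPM in shACSL4. The shControl 3 value lay among those of the knockdown, so the groups overlapped (log2 fold change −0.30 ± 0.09 (SE), edgeR adjusted p = 0.0236). The call was lost without shControl 1, shControl 2, shACSL4 2 or shACSL4 3 (adjusted p of up to 0.103). Without shControl 3 its log2 fold change was −0.41 (edgeR adjusted p = 5.61e-05). Ndufa2, Ndufa13, Ndufb3 and Ndufb11 joined it as lower in that fit, with log2 fold changes between −0.49 and −0.29. Ndufa2 was the clearest case, at 38.5, 38.0 and 18.9 CPM in shControl and 30.4, 28.3 and 22.8 CPM in shACSL4. Its shControl 3 level was 0.493 of the mean of the other controls, the lowest such ratio among the 76 nuclear genes tested, with Cox7a1 next at 0.494. Ndufa4, named for complex I but now counted as a subunit of complex IV, had 156, 157 and 127 CPM in shControl and 154, 145 and 137 CPM in shACSL4, with no difference past the test (log2 fold change −0.01 ± 0.08 (SE), edgeR adjusted p = 0.926). Its hypoxia-induced relative Ndufa4l2 had at most 0.0484 CPM and was not tested, like Ndufb11b.

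Complex III had 2 of 8 nuclear genes higher (25.0%) and 0 lower. Uqcrb, which binds ubiquinone with cytochrome b, had 81.4, 84.9 and 84.3 CPM in shControl and 103, 109 and 100.4 CPM in shACSL4. The controls differed by less than 4 CPM, and all knockdown libraries were above 100 CPM (log2 fold change 0.32 ± 0.06 (SE), edgeR adjusted p = 9.38e-04). Uqcrc1, a core protein of the complex, had 145, 155 and 135 CPM in shControl and 186, 171 and 162 CPM in shACSL4. Its groups did not overlap (log2 fold change 0.25 ± 0.07 (SE), edgeR adjusted p = 0.0135), but the call was lost without shControl 1 or without shACSL4 1. The other core protein, Uqcrc2, had 185, 197 and 162 CPM in shControl and 201, 199.6 and 184 CPM in shACSL4 and did not pass (log2 fold change 0.10 ± 0.07 (SE), edgeR adjusted p = 0.309). The Rieske iron-sulfur protein Uqcrfs1 had 119, 119 and 89.4 CPM in shControl and 129.8, 121 and 113 CPM in shACSL4, with the low value again in shControl 3 (log2 fold change 0.15 ± 0.11 (SE), edgeR adjusted p = 0.334). The remaining 4 genes, Uqcrq, Uqcr10, Uqcr11 and Uqcrh, had log2 fold changes between −0.0056 and 0.19 and were not called.

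Complex IV had 3 of 14 tested nuclear genes higher (21.4%) and 0 lower. Cox6a1, the widely expressed form of subunit VIa, had 166, 162 and 162 CPM in shControl and 223, 229 and 230.5 CPM in shACSL4. It had the smallest adjusted p of all 92 genes (log2 fold change 0.48 ± 0.05 (SE), edgeR adjusted p = 1.63e-05), and its knockdown mean was 228 ± 3.63 CPM against 163 ± 2.44 in the controls (SD, n = 3). The muscle form, Cox6a2, was at 6.65, 7.29 and 8.18 CPM in shControl and 6.18, 6.50 and 7.40 CPM in shACSL4 and was not called (log2 fold change −0.14 ± 0.13 (SE), edgeR adjusted p = 0.459). Cox8a, the subunit VIII form of most tissues, had 253, 249 and 239.9 CPM in shControl and 295, 313 and 298 CPM in shACSL4. All of its knockdown libraries were above its controls (log2 fold change 0.29 ± 0.05 (SE), edgeR adjusted p = 0.00126). Cox5b, a matrix-facing subunit, had 90.1, 87.7 and 69.9 CPM in shControl and 105, 107 and 97.0 CPM in shACSL4. It passed with all libraries (log2 fold change 0.32 ± 0.09 (SE), edgeR adjusted p = 0.0184) and without shControl 3 (adjusted p = 0.00509), and was not called without shACSL4 1 or shACSL4 2. The listed relative Cox5b-ps had 7.98, 8.44 and 5.98 CPM in shControl and 8.98, 11.0 and 7.40 CPM in shACSL4, and since reads of such a copy may be shared with Cox5b its values are uncertain.

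Cox5a, a matrix-facing subunit that joins the complex early, had 56.9, 51.0 and 40.7 CPM in shControl and 63.8, 57.6 and 59.9 CPM in shACSL4. Its groups did not overlap, but it missed the threshold (log2 fold change 0.29 ± 0.11 (SE), edgeR adjusted p = 0.0653). Cox7a1, the heart and muscle form of subunit VIIa, had the largest fitted log2 fold change of the 92 genes, 1.18 ± 0.47 (SE). At 0.736, 0.342 and 0.266 CPM in shControl and 0.893, 0.606 and 1.54 CPM in shACSL4, it was close to the filter, its groups overlapped and the edgeR adjusted p was 0.0785. The part of the muscle marker levels given above in the values of Cox6a2 and Cox7a1 was not tested. The common form Cox7a2 had 67.6, 71.5 and 43.2 CPM in shControl and 60.7, 58.4 and 51.9 CPM in shACSL4. It was not called with all libraries (log2 fold change −0.09 ± 0.20 (SE), edgeR adjusted p = 0.777) and was lower without shControl 3, by −0.28 (edgeR adjusted p = 0.00187). Cox7a2l, which links complexes III and IV, had 90.2, 94.0 and 74.5 CPM in shControl and 96.3, 87.7 and 90.1 CPM in shACSL4 (log2 fold change 0.08 ± 0.08 (SE), edgeR adjusted p = 0.472). Cox6b1, the linker of the 2 monomers of the complex, was at 109, 103 and 80.2 CPM in shControl and 116, 118 and 103 CPM in shACSL4 (log2 fold change 0.21 ± 0.11 (SE), edgeR adjusted p = 0.167), and Cox6b2, its testis form, had at most 0.0489 CPM and was not tested.

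Complex V had 6 of 17 nuclear genes higher (35.3%) and 0 lower. In the F1 head, the catalytic beta subunit Atp5b was the most abundant nuclear gene of the chain by length-scaled level, with 492 ± 26.9 FPKM in shControl and 553 ± 16.3 FPKM in shACSL4 (SD, n = 3). By CPM it had 2129.8, 2157 and 1988 CPM in shControl and 2379.5, 2364 and 2256 CPM in shACSL4. The groups did not overlap (log2 fold change 0.16 ± 0.05 (SE), edgeR adjusted p = 0.0447), but the call stood in only 1 of the 6 fits with 1 library left out. The alpha subunit Atp5a1 had 789, 821 and 728 CPM in shControl and 958, 933 and 886 CPM in shACSL4, and passed the test (log2 fold change 0.25 ± 0.06 (SE), edgeR adjusted p = 0.00725) in all of those fits except the one without shACSL4 1. Atp5d, the delta subunit of the central stalk, had 164, 171 and 149.6 CPM in shControl and 191, 181 and 182 CPM in shACSL4 (log2 fold change 0.19 ± 0.06 (SE), edgeR adjusted p = 0.0291). It was called in 2 of the 6 fits with 1 library left out.

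In the stalk that holds the head still, the b subunit Atp5pb had 288, 290.0 and 286 CPM in shControl and 366, 374 and 353 CPM in shACSL4. Its controls were at 288 ± 2.15 CPM (SD, n = 3), the smallest SD relative to the mean among the 89 genes tested, and the lowest knockdown library was above all of them (log2 fold change 0.34 ± 0.05 (SE), edgeR adjusted p = 3.03e-04). Atp5j, coupling factor 6 of the same stalk, had 143, 140.5 and 124 CPM in shControl and 159.8, 171 and 147 CPM in shACSL4 (log2 fold change 0.23 ± 0.07 (SE), edgeR adjusted p = 0.0263). Without shACSL4 1 or without shACSL4 2 it was not called.

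The rotating c ring is made from 3 genes that encode the same mature protein behind different import signals, and 1 of them passed the test with all libraries. Atp5g1 had 91.5, 93.7 and 81.8 CPM in shControl and 117, 126 and 123 CPM in shACSL4. It rose in every fit (log2 fold change 0.46 ± 0.06 (SE), edgeR adjusted p = 1.67e-04). Atp5g2 had 127, 131 and 108 CPM in shControl and 110.1, 115 and 106 CPM in shACSL4, with overlapping groups (log2 fold change −0.14 ± 0.07 (SE), edgeR adjusted p = 0.168), and was lower without shControl 3 by −0.22 (edgeR adjusted p = 0.00293). Atp5g3 had 180.1, 184 and 117 CPM in shControl and 192, 169 and 157 CPM in shACSL4 and was not called (log2 fold change 0.10 ± 0.20 (SE), edgeR adjusted p = 0.743); without shControl 3 the sign turned, to −0.08. By length-scaled level Atp5g2 and Atp5g3 were the more abundant in the controls, at 72.6 ± 8.14 and 73.5 ± 17.8 FPKM against 18.1 ± 1.48 FPKM for Atp5g1. The length that counts and FPKM imply was 4912 bases for Atp5g1 and 1675 bases for Atp5g2. Their control means were 89.0 and 122 CPM, so the gap was smaller without this length. The differences between the fold changes of these genes were not tested. Atpif1, which encodes the inhibitor of the ATP synthase and lies outside the name patterns, had 22.6, 21.0 and 19.7 CPM in shControl and 21.0, 24.2 and 20.9 CPM in shACSL4 (log2 fold change 0.06 ± 0.09 (SE), edgeR adjusted p = 0.64).

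**Figure D3:**
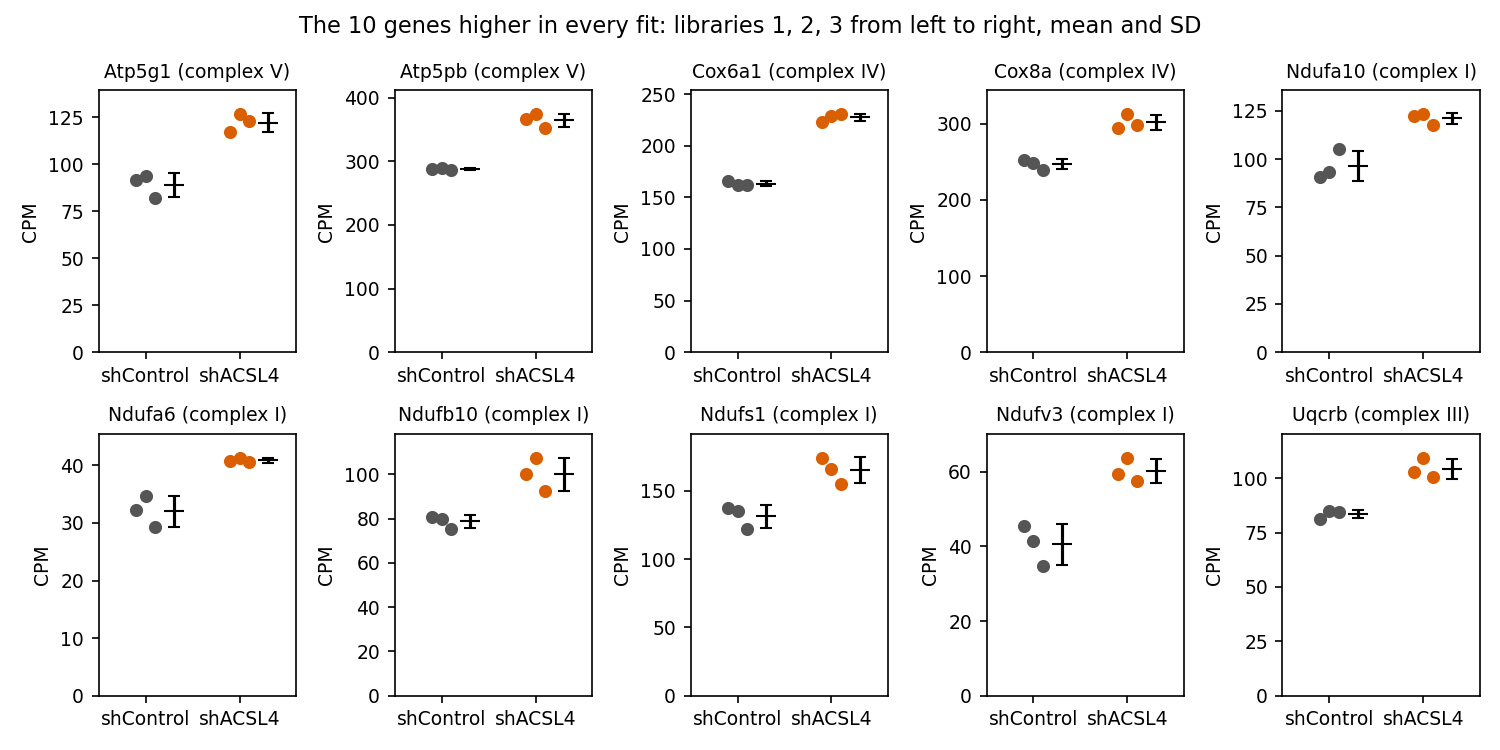
CPM on a linear axis from 0 for the 10 nuclear genes called higher in all fits that left out 1 library; points are libraries 1, 2 and 3 of shControl (grey) and shACSL4 (orange) from left to right, and the bars beside them are the mean and SD (n = 3). In each panel the 3 shACSL4 points lie above the 3 shControl points.

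Set side by side, complexes I, III, IV and V had 9 of 37, 2 of 8, 3 of 14 and 6 of 17 nuclear genes higher. Their median log2 fold changes were 0.14, 0.15, 0.19 and 0.14. Without shControl 3 the numbers higher were the same in each complex, and the medians became 0.04, 0.03, 0.08 and −0.0018. The genes lower in that fit were 5 in complex I, 0 in complex III, 2 in complex IV and 3 in complex V. In complex V these were Atp5g2, Atp5e (the epsilon subunit) and Atp5k, and in complex IV Cox7a2 and Cox6c. No test between complexes was run.

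Length moved with these results. The length that the deposited counts and FPKM imply had a median of 1532 bases over the nuclear genes, against 4535 bases over other protein-coding genes. Of the nuclear genes under 1000 bases, 3 of 21 were higher, then 5 of 29 from 1000 to 2000, 5 of 17 from 2000 to 4000 and 7 of 9 over 4000 bases. In shControl 3 the median deviation from the control mean was −0.32, −0.24, −0.22 and −0.11 in the same bins. Other protein-coding genes had −0.14, −0.06, −0.02 and 0.02 in this library. The median of the nuclear genes was thus lower in shControl 3 than that of other genes in every bin. Among other protein-coding genes, the share higher was 11.2%, 13.4%, 16.2% and 17.1% from the shortest bin to the longest. For the nuclear respiratory chain genes it was 14.3%, 17.2%, 29.4% and 77.8%. Of the 10 genes called in every fit with 1 library left out, Cox6a1, Cox8a and Uqcrb were under 1000 bases. Ndufs1, Atp5pb and Atp5g1 of the same genes were over 4000 bases. The bin over 4000 bases took in Ndufb2 at 5628 and Atp5g1 at 4912 bases. Whether these cells express transcripts of the implied lengths was not tested. The part of transcript length or fragment size in these results was not tested.

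**Figure D4:**
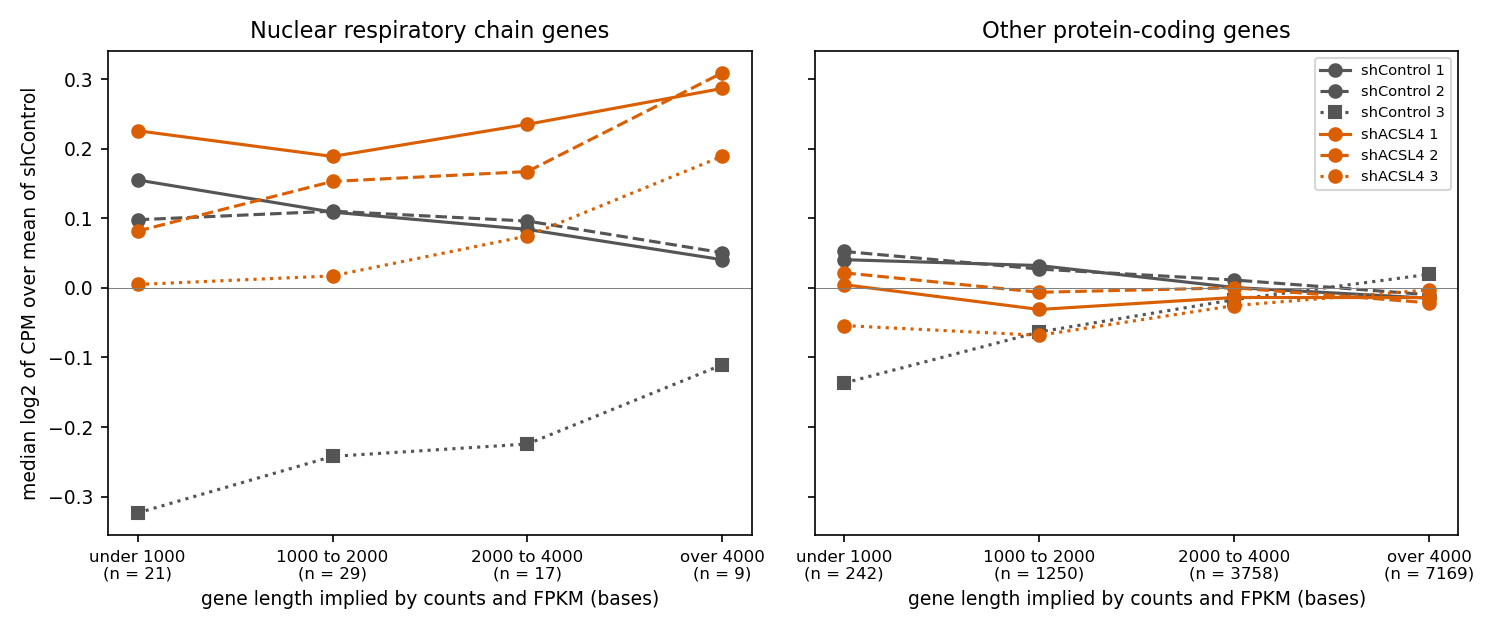
Median log2 of CPM over the mean of the shControl libraries, for each library, in 4 bins of the gene length implied by counts and FPKM; the left panel holds the nuclear respiratory chain genes and the right panel other protein-coding genes. The shControl 3 line (grey squares) runs from −0.32 to −0.11 on the left and from −0.14 to 0.02 on the right.

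The 13 mitochondrial genes made up far more of each library than the 79 nuclear genes. They took 3.98%, 3.79% and 5.85% of the control counts and 4.93%, 6.31% and 5.48% of the knockdown counts, in library order. The nuclear genes took 0.890%, 0.892% and 0.742% in the controls and 0.988%, 0.970% and 0.911% in the knockdown. The ratio of mitochondrial to nuclear counts was 4.47, 4.25 and 7.87 in the controls and 4.99, 6.50 and 6.01 in the knockdown. The highest ratio was that of shControl 3, and the knockdown libraries lay between it and the other controls.

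None of the 13 mitochondrial genes passed the test with all libraries, by edgeR (0 higher, 0 lower), DESeq2 or limma-voom, and 12 of 13 had a log2 fold change above 0, with a median of 0.38. The smallest edgeR adjusted p among them was 0.121, for mt-Co1. At an unadjusted p under 0.05 the edgeR count was 1 of 13. Without shControl 3 the median was 0.68 and 4 genes were higher: mt-Nd1, mt-Nd2, mt-Nd4l and mt-Co1. All 3 knockdown libraries were above shControl 1 in 10 of the 13 genes and above shControl 2 in 12, but above shControl 3 in 0 of them and below it in 3. A higher level in the knockdown was thus seen relative to 2 of the 3 controls. Of all 14289 genes tested, 5293, 5282 and 5254 had every knockdown library above shControl 1, 2 and 3, and 5054 had every one below shControl 3.

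The mt-Co1 gene, for the catalytic subunit of complex IV, had 11385, 10895 and 16002 CPM in shControl and 15187, 17586 and 17319 CPM in shACSL4. Its knockdown libraries were above shControl 1 and 2, and shControl 3 lay among them (log2 fold change 0.39 ± 0.16 (SE), edgeR adjusted p = 0.121). Without shControl 3 the log2 fold change was 0.59 (edgeR adjusted p = 2.82e-07). The membrane arm subunit gene mt-Nd1 of complex I had 5129, 4729 and 8036 CPM in shControl and 6811, 8575 and 7839.7 CPM in shACSL4, in the same order (log2 fold change 0.38 ± 0.24 (SE), edgeR adjusted p = 0.323). Its neighbour mt-Nd2 had 4706, 4632 and 7603 CPM in shControl and 6526, 8577 and 7361 CPM in shACSL4 (log2 fold change 0.41 ± 0.25 (SE), edgeR adjusted p = 0.299). Without shControl 3 the log2 fold changes of these 2 were 0.65 and 0.68 (edgeR adjusted p = 0.00328 and 0.0187). Cytochrome b (mt-Cytb), the only mitochondrial subunit of complex III, had 12368, 12139 and 18327 CPM in shControl and 13373, 17910.0 and 14097 CPM in shACSL4. It was the most abundant of the 92 genes by length-scaled level, at 12411 ± 2884 FPKM in shControl, and shControl 3 was its highest library (log2 fold change 0.08 ± 0.21 (SE), edgeR adjusted p = 0.812). The other long membrane arm subunits of complex I were mt-Nd4, with 2087, 1972 and 3486 CPM in shControl and 2756, 3724 and 2964 CPM in shACSL4, and mt-Nd5, with 2912, 2791 and 4428 CPM in shControl and 3323, 4659.7 and 3861 CPM in shACSL4. Neither passed with all libraries or without shControl 3. The gene mt-Nd6, which lies on the strand opposite to the other subunit genes, had 528, 498 and 843 CPM in shControl and 564, 945 and 694 CPM in shACSL4 (log2 fold change 0.24 ± 0.31 (SE), edgeR adjusted p = 0.63).

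Levels differed greatly among genes cut from the same long mitochondrial transcripts. The 6 lowest in FPKM were mt-Atp8 and the 5 genes with near-identical nuclear copies over almost their whole length. Such copies are mitochondrial DNA inserted into chromosomes, here annotated as pseudogenes. In the GENCODE M21 transcripts, a nuclear copy at 99% identity or more covered 99.6% of mt-Co2, 99.6% of mt-Atp6, 99.9% of mt-Co3, 99.1% of mt-Nd3, 99% of mt-Nd4l and 63.6% of mt-Nd4. It covered 31.3% of mt-Co1, 21.1% of mt-Atp8 and 0% of mt-Nd1, mt-Nd2, mt-Nd5, mt-Nd6 and mt-Cytb. At 95% identity or more, nuclear copies covered 100% of mt-Co1, 52.3% of mt-Nd5 and 49.1% of mt-Nd2. The cover of mt-Nd1, mt-Nd6 and mt-Cytb was still 0% at that limit. In shControl 1, mt-Co3 had 27.3 FPKM and mt-Co2 236 FPKM, against 7425 FPKM for mt-Co1. For the genes covered for at least 50% at 99% identity, the best copy lies on chromosome 1. Among these copies are Gm28661 for mt-Co2, Gm10925 for mt-Atp6 and Gm28437 for mt-Co3. Each is identical over its aligned length, of 681, 678 and 783 bases. How reads that match 2 places were counted is not stated in the labels or notes, and the values of the copied genes are uncertain. mt-Atp8 and mt-Atp6 also overlap, at positions 7766 to 7969 and 7927 to 8607 of the mitochondrial chromosome in GRCm39, as do mt-Nd4l (9877 to 10173) and mt-Nd4 (10167 to 11544).

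Stretches of 61 bases show how close such copies are, with the differing bases in capitals. The mt-Nd3 transcript and its copy Gm28438 on chromosome 1 differ over 345 aligned bases by 1 base, T3C, counted from the 5′ end of the transcript with the mitochondrial base first.
mt-Nd3, bases 1 to 61: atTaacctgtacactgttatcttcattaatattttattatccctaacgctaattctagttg
Gm28438, same stretch: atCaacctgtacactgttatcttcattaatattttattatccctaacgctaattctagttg
The mt-Cytb transcript and its closest match Gm11410 on chromosome 4, at 92.9% identity, differ by 6 bases in the stretch shown.
mt-Cytb, bases 561 to 621: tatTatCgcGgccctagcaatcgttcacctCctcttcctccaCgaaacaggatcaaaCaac
Gm11410, same stretch: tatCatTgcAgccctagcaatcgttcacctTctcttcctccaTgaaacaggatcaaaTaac

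Among the copied genes the libraries were also less alike. The mt-Nd3 gene had 7.24, 5.90 and 50.6 CPM in shControl and 12.6, 19.4 and 6.19 CPM in shACSL4. It had the smallest fitted log2 fold change of the 92 genes (log2 fold change −0.74 ± 1.09 (SE), edgeR adjusted p = 0.671), and without shControl 3 the sign turned, to 0.96. For mt-Co2 the values were 160.3, 98.0 and 453 CPM in shControl and 147, 676 and 177 CPM in shACSL4, where shACSL4 2 and shControl 3 were high (log2 fold change 0.49 ± 0.95 (SE), edgeR adjusted p = 0.752). The mt-Co3 gene had 21.2, 19.2 and 34.4 CPM in shControl and 31.9, 61.8 and 39.3 CPM in shACSL4 (log2 fold change 0.83 ± 0.37 (SE), edgeR adjusted p = 0.182). The ATP synthase genes mt-Atp6, with 132, 88.0 and 219 CPM in shControl and 145, 327 and 176 CPM in shACSL4, and mt-Atp8, with 8.50, 12.0 and 16.0 CPM in shControl and 7.26, 25.7 and 25.5 CPM in shACSL4, were not called with all libraries, and mt-Atp8 was called higher without shACSL4 1. For mt-Nd4l the values were 9.11, 6.16 and 16.8 CPM in shControl and 14.4, 15.2 and 11.1 CPM in shACSL4 (log2 fold change 0.34 ± 0.40 (SE), edgeR adjusted p = 0.575), and it was higher without shControl 3 (edgeR adjusted p = 0.00245). The 7 genes covered for less than 50% at 99% identity had a median log2 fold change of 0.38 with all libraries and 0.59 without shControl 3. The other 6 had 0.42 and 0.97.

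**Figure D5:**
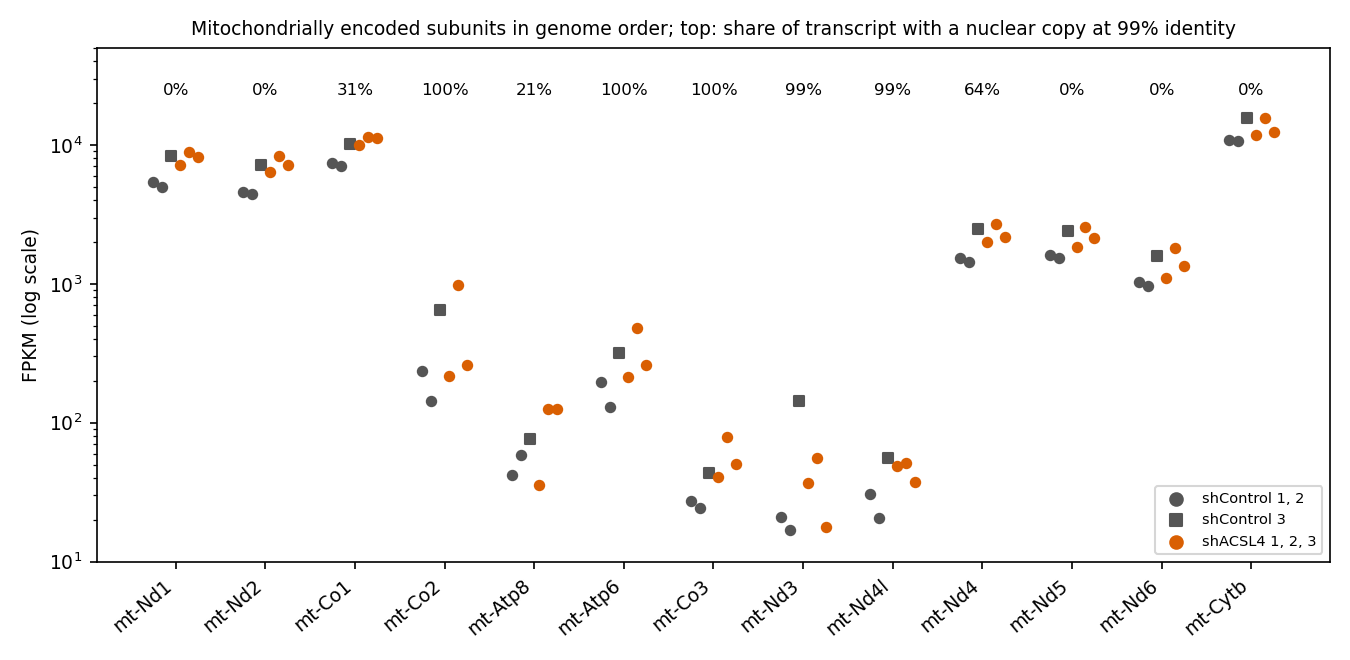
Deposited FPKM on a log axis for the 13 mitochondrial genes in their order along the mitochondrial chromosome, 6 points per gene from shControl 1 to shACSL4 3, with the share of each transcript covered by a nuclear copy at 99% identity printed above. Genes with a share of 99% or more lie below 1000 FPKM, and shControl 3 (grey square) lies above shControl 1 and 2 in every gene.

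Other genes of the pathway were read from the same fit. Among all genes tested, 15.4% were higher and 13.6% lower. Complex II, which passes electrons from succinate to ubiquinone and has no mitochondrial subunit, had 2 of 4 genes higher. Sdha, its flavin-binding subunit, had 346, 359 and 338 CPM in shControl and 487, 466 and 475 CPM in shACSL4 (log2 fold change 0.45 ± 0.05 (SE), edgeR adjusted p = 3.84e-05). Sdhd, a membrane anchor, was higher by 0.25 (edgeR adjusted p = 0.0482), and Sdhc had an adjusted p of 0.0534. Of the 4 tested subunits and carriers outside the name patterns, Cycs, the mobile electron carrier, and Cyc1 of complex III were higher. Cycs had 269, 261 and 294 CPM in shControl and 324, 339 and 339 CPM in shACSL4 (log2 fold change 0.28 ± 0.06 (SE), edgeR adjusted p = 0.003), and Cyc1 had 195, 199 and 166 CPM in shControl and 239, 230.3 and 216 CPM in shACSL4 (log2 fold change 0.29 ± 0.07 (SE), edgeR adjusted p = 0.00844). Ndufab1, the mitochondrial acyl carrier protein, had an adjusted p of 0.100 and Cox4i1 of 0.368.

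Assembly factors build the complexes and are not part of them. For complex I, 3 of 17 were higher (17.6%, near the 15.4% of all genes), namely Tmem186, Ndufaf5 and Ecsit at 1.19-fold to 1.24-fold. For complex III 1 of 6 was (16.7%), Lyrm7, at 3.85, 3.23 and 5.30 CPM in shControl and 5.65, 6.71 and 8.18 CPM in shACSL4 (log2 fold change 0.73 ± 0.19 (SE), edgeR adjusted p = 0.0134). For complex IV 6 of 23 were higher (26.1%). Cox10, which begins the making of heme a, had 22.1, 21.9 and 25.4 CPM in shControl and 34.6, 31.6 and 34.0 CPM in shACSL4 (log2 fold change 0.53 ± 0.08 (SE), edgeR adjusted p = 4.02e-04). Cox15, the next enzyme of that path, had 44.5, 51.8 and 55.0 CPM in shControl and 67.1, 60.7 and 68.2 CPM in shACSL4 (log2 fold change 0.37 ± 0.08 (SE), edgeR adjusted p = 0.00395). Coa5, the third of the list by adjusted p, was higher by 0.26 (edgeR adjusted p = 0.00581). For the ATP synthase 2 of 5 were higher (40%), Atpaf2, which binds the alpha subunit, and Atpaf1, which binds the beta subunit (log2 fold changes 0.33 and 0.47, edgeR adjusted p = 0.00846 and 0.0298), and Tmem70 had an adjusted p of 0.807. No assembly factor of these 4 lists was lower with all libraries, whereas without shControl 3 the lists held 4, 1, 3 and 0 lower genes for complexes I, III, IV and V, in a fit where 18.1% of all genes were lower against 13.6% with all libraries.

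Of 33 genes for mitochondrial DNA copying, transcription and RNA handling, 6 were higher (18.2%) and 2 lower (6.06%), the former near the 15.4% of all genes. The 3 with the smallest adjusted p were Pnpt1, an RNA-degrading enzyme that also takes part in RNA import (log2 fold change 0.51 ± 0.08 (SE), edgeR adjusted p = 3.81e-04), Fastkd1 (log2 fold change 0.43 ± 0.07 (SE), edgeR adjusted p = 7.86e-04) and Ptcd1 (log2 fold change 0.29 ± 0.07 (SE), edgeR adjusted p = 0.00608), both RNA-binding proteins of the matrix. All 3 were higher with no overlap between groups. Of 15 markers of mitochondrial mass and import, 2 were higher (13.3%) and 1 lower (6.67%), neither above the share of all genes. Citrate synthase, Cs, had 451, 475 and 494 CPM in shControl and 551, 566 and 558 CPM in shACSL4 (log2 fold change 0.24 ± 0.05 (SE), edgeR adjusted p = 0.00484). The import receptor gene Tomm20 had 218, 211 and 204 CPM in shControl and 178, 181 and 173 CPM in shACSL4, lower in all knockdown libraries (log2 fold change −0.25 ± 0.05 (SE), edgeR adjusted p = 0.00291). Hspa9, the matrix chaperone that pulls proteins in, was higher by 0.16 (edgeR adjusted p = 0.0322).

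The nuclear regulators of respiratory genes had 3 of 11 higher (27.3%) and 2 lower (18.2%). Ppargc1a, the coactivator PGC-1alpha, had 19.2, 18.7 and 27.1 CPM in shControl and 84.8, 78.9 and 96.6 CPM in shACSL4 (log2 fold change 2.00 ± 0.15 (SE), edgeR adjusted p = 3.84e-05), a 4.01-fold rise. Esrrg, an orphan nuclear receptor that works with it, had 0.926, 1.54 and 1.72 CPM in shControl and 6.93, 6.82 and 5.47 CPM in shACSL4 (log2 fold change 2.20 ± 0.22 (SE), edgeR adjusted p = 1.12e-05), and its relative Esrra had 78.8, 76.4 and 59.6 CPM in shControl and 92.1, 95.3 and 90.1 CPM in shACSL4 (log2 fold change 0.37 ± 0.09 (SE), edgeR adjusted p = 0.011). The 2 lower genes were Nrf1, by −0.21 (edgeR adjusted p = 0.0167), and Gabpb1, a GABP subunit that does not itself bind DNA, by −0.21 (edgeR adjusted p = 0.0337). Gabpa, the DNA-binding subunit of GABP, had a log2 fold change of 0.01 (edgeR adjusted p = 0.896), Gabpb2 of 0.11 (edgeR adjusted p = 0.165) and Yy1 of 0.03 (edgeR adjusted p = 0.717), none past the test. Leaving out 1 library raised the edgeR adjusted p of Nrf1 to at most 0.0845 and that of Gabpb1 to at most 0.141. Both of these lower calls were thus lost in some such fit. Nrf1, Gabpb1, Gabpa, Gabpb2 and Yy1 were singled out after their values were seen. Whether the regulators bear on the respiratory chain genes was not tested.

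Several calls among these further genes did not hold when 1 library was left out. Hspa9 and Ecsit lost theirs in every such fit except the one without shControl 3. Sdhd lost its call without shControl 1, shACSL4 1 or shACSL4 2, Ndufaf5 without shControl 1, shACSL4 1 or shACSL4 3, and Tmem186 without shACSL4 3. Lyrm7 lost its call without shControl 1, shControl 2 or shACSL4 3, and Atpaf1 without shControl 1, shControl 2, shACSL4 1 or shACSL4 3. The highest edgeR adjusted p among these was 0.158, for Hspa9. Genes counted as called above but not named also lost their calls in some such fit. The highest edgeR adjusted p was 0.163 for Higd2a, 0.132 for Taco1 and 0.0571 for Cmc2 of complex IV assembly. Among the RNA handling genes it was 0.207 for Lrpprc, 0.165 for Trmt10c, 0.0798 for Top1mt and 0.0640 for Ptcd2.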

How the data were processed

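Total RNA of 6 MC38 libraries was depleted of ribosomal RNA and primed with random hexamers, per the labels' protocols. CASAVA, HISAT2 and DESeq2 with the GRCm39 build are named in the submitters' processing notes. The counting program, annotation release, strandedness and versions are not given in the sources used here. Counts and FPKM per gene were deposited by the authors, per the file headers. The log2 fold changes and p-values in the authors' deposited table are theirs and are quoted only where named.

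Counts were tested with edgeR 4.0.16 (limma 3.58.1, R 4.3.3): TMM scaling, filterByExpr (at least 10 counts in enough libraries, 15 in all), a robust two-sided quasi-likelihood test, and Benjamini-Hochberg adjustment over 14289 genes, with a threshold of 0.05. CPM are counts scaled to library size and the TMM factor, log2 fold changes are shACSL4 over shControl, and SE is the fold change divided by the root of the F statistic. A count of 3 corresponds to 0.0637 to 0.0733 CPM before scaling, which covers counting error only. Alternatives were other scalings (DESeq2 1.42.0 size factors, library size, no mitochondrial genes), DESeq2 and limma-voom, 2 filters, the replicate number as a block, and each library left out. The fit was checked on simulated counts. Gene coordinates are GRCm39; nuclear copies were sought by BLAST in GENCODE M21 transcripts (GRCm38), matched by gene ID, and promoters come from RefSeq's GRCm38.p6 table.

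The genes and lists were chosen with earlier results of these data known. The genes named are, per complex and genome, up to 5 higher and 5 lower with the smallest adjusted p, all mitochondrial subunits, the core subunits and isoform families, the genes with the extreme fold changes and up to 3 per further list; genes named beyond these, such as those lower without shControl 3, were chosen after their values were seen. Cox8b and Cox8c were not analysed here. The values of 1 gene that this rule names are not reported here.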

Additional observations from a re-analysis of the deposited data

How the results depend on the processing

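Of the 140 values recomputed for the counts of genes higher or lower, 121 stayed within 1.5 times and 19 did not. Other scalings, DESeq2, limma-voom and both filters left the nuclear count between 20 and 22 higher and at 1 lower, with the same 20 genes included. With 1 library left out, the nuclear genes higher ranged from 11 to 20 and lower from 0 to 10, and the mitochondrial genes higher from 0 to 4. For both genomes together the range was 5 to 12 higher in complex I, 1 to 2 in complex III, 2 to 5 in complex IV and 3 to 6 in complex V, and over all genes 1666 to 2818 higher and 1252 to 2659 lower. The 10 lower and 4 mitochondrial genes come from the fit without shControl 3.

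With the replicate number as a block, 31 nuclear genes were higher, 14 in complex I and 6 in complex IV, and the 20 were among them. The share of all genes called in that fit is not given here, so these numbers cannot be read as particular to the respiratory chain. Nothing in the labels pairs the libraries. Deviations of same-numbered libraries correlated at 0.083, 0.064 and 0.126, each the highest for its library. With 3 libraries a group there are few ways to match them, so these small correlations cannot show whether libraries were paired.

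Among 47 named respiratory chain genes, 7 turned sign in log2 fold change under some alternative, as did Tmem70 and Atpif1; none of these was called with all libraries. With 1 library left out, Atp5g3 ranged from −0.076 without shControl 3 to 0.21, Cox7a2l from −0.0086 without shControl 3 to 0.15, Tmem70 from −0.043 without shControl 3 to 0.10, and mt-Nd3 from −1.18 to 0.96 without shControl 3. Cox7a2 ranged from −0.28 to 0.039 without shControl 2, mt-Co2 from −0.55 without shACSL4 2 to 1.37, and Atpif1 from −0.0092 without shACSL4 2 to 0.11. Ndufa4 ranged from −0.11 to 0.038 and was above 0 without shControl 1, shControl 2 or shACSL4 3, and at 0.00080 under the stricter filter. The range of mt-Cytb was −0.057 to 0.31, below 0 without shControl 1, shControl 2 or shACSL4 2. The cause was not tested. With 3 libraries a group, fold changes near that of Atp5b (1.12-fold) sat at the edge of what passed.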
